A study of Mus musculus with 19 samples.

Results

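MHC class I molecules carry peptides from inside the cell to its surface, where T cells read them. The 10 genes described here are 4 class I heavy chain genes (H2-K1, H2-D1, H2-T10 and H2-T23), the light chain gene B2m, the peptide transporter genes Tap1 and Tap2, and the immunoproteasome subunit genes Psmb8, Psmb9 and Psmb10. The genes were named with earlier results of these data known. Every probe annotated with one of the 10 symbols was taken, whatever its signal, which gave 13 of the 24048 probes on the arrays. H2-T23, B2m and Psmb10 had 2 probes each, called probe 1 (the brighter) and probe 2 below.

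Male BALB/c mice aged 12 weeks had all been fed an atherogenic diet for 6 weeks. The AD + OPP group drank oil palm phenolics, a phenolic-rich extract of the oil palm fruit, at 1500 ppm gallic acid equivalent, and the AD + DW group drank distilled water. Total RNA of livers (3 AD + OPP and 4 AD + DW), spleens (3 and 3) and hearts (3 and 3) was hybridized to 19 Illumina MouseRef-8 arrays. The comparison of interest was whether OPP altered gene expression in each organ of mice kept on this diet.

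As background, a heavy chain and beta-2-microglobulin, the product of B2m, form the class I molecule. The proteasome cuts proteins into peptides, and under interferon gamma its catalytic subunits encoded by Psmb5, Psmb6 and Psmb7 give way to those encoded by Psmb8, Psmb9 and Psmb10. TAP, made of the Tap1 and Tap2 products, moves the peptides into the endoplasmic reticulum, where they are loaded. H2-K1 and H2-D1 encode classical heavy chains, H2-T23 encodes the non-classical Qa-1, and H2-T10 belongs to the T region and is annotated as a transcribed pseudogene in RefSeq. Lymphocytes and other leukocytes carry much class I, while hepatocytes and heart muscle cells carry little.

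In GRCm38.p6, the RefSeq build used for annotation, 8 of the genes lie on chromosome 17, with B2m on chromosome 2 and Psmb10 on chromosome 8. The peptide supply genes form a block in which Psmb9 (chr17:34182030-34187330), Tap1 (chr17:34187556-34197225), Psmb8 (chr17:34198195-34201454) and Tap2 (chr17:34204479-34216321) follow each other. The heavy chain genes flank it or lie farther along: H2-K1 (chr17:33996012-34000619), H2-D1 (chr17:35263094-35267497), H2-T23 (chr17:36029977-36032701) and H2-T10 (chr17:36115871-36121444). B2m lies at chr2:122147687-122153082 and Psmb10 at chr8:105935728-105938392.

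Promoter windows of RefSeq (GRCm38.p6), from 250 bases before to 50 bases after the start of a gene, were found for 8 of the 10 genes; H2-T10 and Tap2 are named only. For H2-K1 the windows are set on transcript starts inside the gene span given above, so that the stretch shown lies within that span. They are shown because factors of the NF-kappaB, interferon regulatory and CRE-binding families are known to act on class I promoters. Each stretch is written 5′ to 3′ on the strand of its gene, and the capitals mark matches on either strand to GGGNNTTCC (NF-kappaB), AANNGAAA (interferon regulatory factors) or TGACGC (CRE-like); no marked matches overlap one another.
H2-K1 (chr17:34000378-34000463, minus strand): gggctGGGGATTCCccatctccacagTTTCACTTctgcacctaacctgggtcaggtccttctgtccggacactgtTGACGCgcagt
H2-D1 (chr17:35262918-35263003, plus strand): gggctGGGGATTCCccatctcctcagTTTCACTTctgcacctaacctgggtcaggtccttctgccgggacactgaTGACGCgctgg
H2-T23 (chr17:36032765-36032835, minus strand): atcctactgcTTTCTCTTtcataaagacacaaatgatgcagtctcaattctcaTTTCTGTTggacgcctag
B2m (chr2:122147540-122147567, plus strand): aagaacatgaAACTGAAAatgggaaagt

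The stretches of H2-K1 and H2-D1 were identical at 80 of 86 bases, and both held all 3 motifs at the same spacing. H2-T23 and B2m held only the AANNGAAA core among these motifs. This core was found in 4 of the 8 promoter windows and in 23.9% of the 32851 windows of all genes, GGGNNTTCC in 2 of 8 and in 5.82%, and TGACGC in 2 of 8 and in 7.4%. The windows of Tap1, Psmb8, Psmb9 and Psmb10 held none of the 3. A match is a run of letters in the reference strain, not a measured binding site.

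Psmb9 and Tap1 are transcribed away from each other from starts 225 bases apart, so that they share a promoter region. It is shown as the plus strand from the base after the start of Psmb9 to the base before the start of Tap1, with a CCAAT box, a match held by 37.4% of all windows, in capitals.
Psmb9 and Tap1 (chr17:34187331-34187555, plus strand): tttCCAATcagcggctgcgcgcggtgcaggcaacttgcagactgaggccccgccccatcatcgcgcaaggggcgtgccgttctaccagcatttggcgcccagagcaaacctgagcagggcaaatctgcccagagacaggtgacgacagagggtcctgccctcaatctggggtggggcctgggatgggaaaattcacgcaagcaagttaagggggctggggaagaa

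The values below are the signals normalized by the authors, on a linear scale with background subtracted, and they can be compared within an organ only. A probe counted as detected on an array at a detection p under 0.01, and was tested in an organ where all AD + OPP arrays or all AD + DW arrays detected it. Of the 13 probes, 12 were tested in spleens, 10 in livers and 9 in hearts. Fold changes are on the log2 scale with signals below 10 set to 10, AD + OPP minus AD + DW, with the standard error, and p-values are from limma, adjusted over all probes tested. B2m probe 2 was detected on no array although B2m probe 1 was among the bright ones everywhere, and Tap1 was detected in the spleen only. H2-K1 and Psmb8 were detected on no heart array, and Psmb8 was detected on 3 of 7 liver arrays. The array annotation names each probe through reference transcripts, and the H2 genes are alike in sequence and differ between strains. Whether each H2 probe reads the BALB/c allele of its gene alone was not tested.

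**Figure D1:**
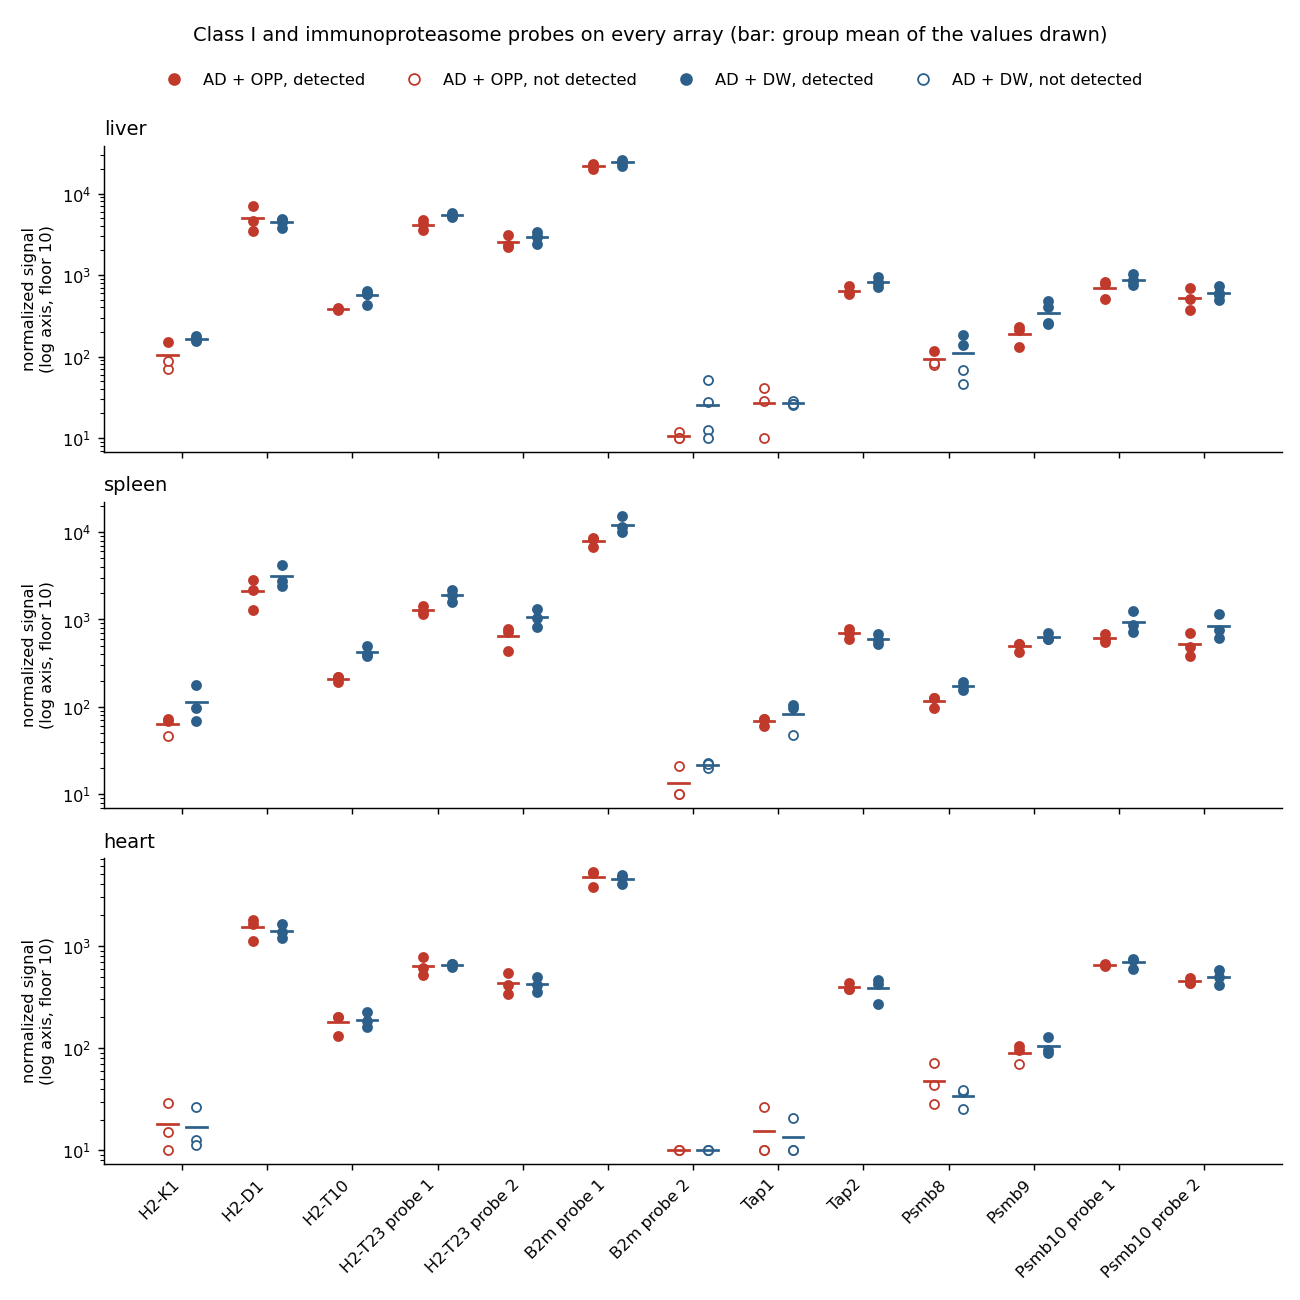
Normalized signal of the 13 probes (x axis) on each array, on a log axis with values below 10 drawn at 10, for AD + OPP (red, left) and AD + DW (blue, right) in the 3 organs. Filled points were detected and open points were not, and the bar is the mean of the points; in the spleen all 3 AD + OPP arrays lie below all 3 AD + DW arrays for 7 of the 12 probes tested.

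In the spleen, 11 of the 12 probes tested had a lower mean log2 signal in the AD + OPP group, by up to 1.01 on the log2 scale, and Tap2 was the exception. The median fold change of the 12 probes was -0.60, against -0.07 over all 6664 spleen probes tested. With quantile normalization of the unnormalized signals it was -0.39, with Psmb8 at -0.19 and B2m probe 1 at -0.33. Over the 10 probes detected on all 6 spleen arrays, 9 had a negative fold change, with a median of -0.60. No member passed an adjusted p of 0.05, and neither did any other probe (0% of 6664), although 561 probes were lower and 539 higher at an unadjusted p under 0.05. At an unadjusted p under 0.05, 6 of the 12 probes were lower in AD + OPP, as were 8.42% of all probes tested. The groups did not overlap for 7 of the 12, against 12.3% of all probes with every AD + OPP array below every AD + DW array.

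Among the heavy chain genes, H2-T10 had signals of 218, 222 and 193 in the AD + OPP spleens, against 406, 383 and 492 in the AD + DW spleens. The 2 groups lay well apart, with the highest AD + OPP array far below the lowest AD + DW array. Its mean was 211 ± 15.6 in AD + OPP and 427 ± 57.4 in AD + DW (SD, n = 3 each), a fold change of -1.01 ± 0.17 with an adjusted p of 0.0712 (limma), a value it shared with other spleen probes, some of which had a smaller unadjusted p. This probe lies close to the threshold: it passed in 8 of 14 alternative analyses, with adjusted p-values between 0.00749 and 0.266.

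H2-T23 probe 1 gave 1262, 1418 and 1168 in the AD + OPP spleens and 1913, 1565 and 2166 in the AD + DW spleens. H2-T23 probe 2 gave 437, 725 and 779 in AD + OPP and 1040, 828 and 1308 in AD + DW. For both probes of this gene, whose product Qa-1 is the ligand of the Cd94 receptor on natural killer cells, the groups did not overlap. The fold changes were -0.54 ± 0.18 (adjusted p = 0.206) for probe 1 and -0.73 ± 0.28 (adjusted p = 0.261) for probe 2. H2-D1 signals were 1296, 2836 and 2164 in AD + OPP and 2743, 2426 and 4156 in AD + DW, and these overlapped, with a fold change of -0.60 ± 0.34 (adjusted p = 0.441). H2-K1 was dim, at 69.4, 46.7 and 72.3 in AD + OPP and 68.6, 96.7 and 179 in AD + DW, and also overlapped (-0.78 ± 0.37, adjusted p = 0.355). It was tested only because all AD + DW arrays detected it, while 2 of 3 AD + OPP arrays did.

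B2m, the light chain that every class I heavy chain needs, gave 6799, 8537 and 8364 with probe 1 in the AD + OPP spleens and 11327, 9942 and 15218 in the AD + DW spleens. All AD + OPP values were below all AD + DW values, and AD + DW replicate 3 stood highest. The fold change was -0.61 ± 0.21 with an adjusted p of 0.213.

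The transporter genes lay apart from these. Tap2 gave 700.0, 597 and 779 in the AD + OPP spleens and 687, 589 and 521 in the AD + DW spleens, overlapping, with a fold change of 0.21 ± 0.18 (95% interval -0.23 to 0.65). Tap1 was near the detection limit, at 59.9, 72.5 and 72.9 in AD + OPP and 104, 97.5 and 47.4 in AD + DW, and overlapped (-0.20 ± 0.32).

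Of the immunoproteasome genes, Psmb8, which encodes the chymotrypsin-like subunit LMP7, gave 97.7, 127 and 127 in the AD + OPP spleens and 173, 156 and 194 in the AD + DW spleens. The groups did not overlap and the fold change was -0.58 ± 0.18 (adjusted p = 0.178). Psmb9, which encodes LMP2, gave 530.2, 527 and 422 in AD + OPP and 596, 707 and 590.1 in AD + DW. These did not overlap either, with a smaller fold change of -0.36 ± 0.17 (adjusted p = 0.369). Psmb10, which encodes MECL-1, gave 689, 591 and 550 with probe 1 in AD + OPP and 866, 719 and 1253 in AD + DW, again without overlap (-0.60 ± 0.24, adjusted p = 0.273). Its probe 2 gave 704, 489 and 381 in AD + OPP and 753, 614 and 1149 in AD + DW, which overlapped (-0.67 ± 0.31, adjusted p = 0.347).

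AD + DW replicate 3 was the highest spleen array for 9 of the 12 probes tested, and it had the fewest probes detected of the spleen arrays (5863) and the steepest normalization slope (1.62). Without it, the median fold change was -0.43 and 3 probes were lower at an unadjusted p under 0.05; without AD + OPP replicate 1, this count was also 3, and without AD + DW replicate 2 the median was -0.75. The fold changes of the probes at an unadjusted p under 0.05 stayed negative in each of these analyses.

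In bulk RNA of an organ, fewer cells of a type and less RNA per cell cannot be told apart. The class I signals in the spleen moved beside markers of several leukocyte types. All 6 B cell genes tested were lower at an unadjusted p under 0.05, with mean log2 signals of 7.07, 7.80 and 7.51 in AD + OPP and 9.22, 8.65 and 8.93 in AD + DW; Cr2 and Pax5 were detected on no spleen array. For T cells this held for 5 of 6 genes (7.40, 8.29 and 8.29 in AD + OPP, 9.27, 8.52 and 9.09 in AD + DW; Cd4 and Cd5 not detected), and for dendritic cells for 4 of 4 (6.56, 6.93 and 7.14 in AD + OPP, 8.07, 7.84 and 8.20 in AD + DW). Of 6 macrophage genes, 3 were lower (8.65, 8.97 and 9.12 in AD + OPP, 9.57, 9.29 and 10.08 in AD + DW). All 10 neutrophil genes were higher at an unadjusted p under 0.05, with means of 12.30, 12.67 and 12.41 in AD + OPP and 10.16, 11.63 and 10.21 in AD + DW. Of the natural killer cell genes tested, Nkg7 was higher, at 977 ± 250.4 in AD + OPP and 404 ± 145 in AD + DW (1.29 ± 0.31, adjusted p = 0.0973), and Klrd1 was lower, both at an unadjusted p under 0.05; Ncr1, Klrb1c, Gzma and Prf1 were detected on no spleen array. Red cell genes had means of 13.34, 13.25 and 13.24 in AD + OPP and 13.47, 13.56 and 13.81 in AD + DW, without overlap, and 1 of 4 was lower. Of 5 endothelial genes 3 were lower, with means of 6.83, 7.21 and 7.30 in AD + OPP and 7.52, 7.43 and 7.79 in AD + DW. All 4 acute phase genes tested were higher, with means of 9.88, 9.30 and 10.15 in AD + OPP and 6.72, 7.96 and 7.18 in AD + DW. Of 14 acute phase genes with a probe, 1 was detected on all spleen arrays and 8 on none. Among the genes tested, 4 B cell, 5 T cell, 3 dendritic cell, 8 neutrophil and 3 endothelial genes were detected on all spleen arrays. The other genes tested in these lists, and the other acute phase genes, passed the filter through a single treatment group. The filter may thus set part of these one-sided counts. The part of these cell types and states in the class I values was not tested.

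**Figure D2:**
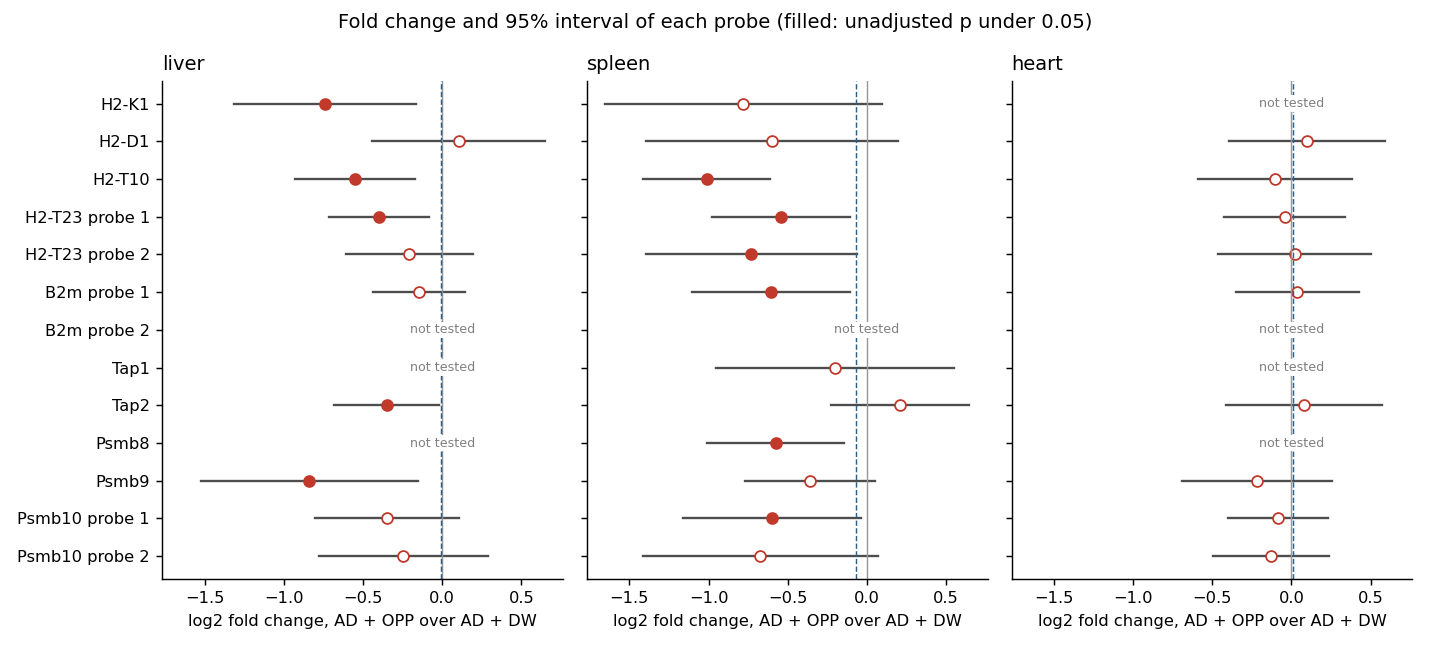
Log2 fold change, AD + OPP over AD + DW (x axis), of each probe (rows) in the 3 organs, with its 95% interval; filled points had an unadjusted p under 0.05, the solid line is 0 and the dashed line is the median of all probes tested. The probes lie left of the dashed line for 11 of 12 in the spleen and scatter about it in the heart.

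In the liver, 9 of the 10 probes tested had a lower mean log2 signal in AD + OPP, by between 0.15 and 0.84, and H2-D1 had a slightly higher one. The median fold change was -0.35, against -0.005 over all 6007 liver probes tested. Of the 9 probes detected on all 7 liver arrays, 8 had a negative fold change, with a median of -0.35. No member and no other liver probe passed an adjusted p of 0.05 (0% of 6007), and 258 probes were lower and 237 higher at an unadjusted p under 0.05. At an unadjusted p under 0.05, 5 of the 10 member probes were lower, against 4.29% of all probes tested. In 4 of the 10, every AD + OPP array lay below every AD + DW array, against 4.36% of all probes. Both counts include H2-K1, which passed the filter through the AD + DW group alone; of the 9 probes detected on all arrays, 4 were lower at an unadjusted p under 0.05.

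H2-T10 gave 391, 369 and 378 in the AD + OPP livers and 644, 425, 588 and 592 in the AD + DW livers. The AD + OPP values lay close together and below all AD + DW values, and the fold change was -0.55 ± 0.16 (adjusted p = 0.59). H2-T23 probe 1 gave 4669, 3535 and 4203 in AD + OPP and 5808, 5443, 5289 and 5168 in AD + DW, also without overlap (-0.40 ± 0.14, adjusted p = 0.59), whereas its probe 2 overlapped (-0.21 ± 0.17, adjusted p = 0.719). H2-K1 gave 153, 69.8 and 88.8 in AD + OPP, where 1 of 3 arrays detected it, and 169, 158, 153 and 176 in AD + DW, where all 4 did. The 2 lowest values were those of AD + OPP replicates 2 and 3, and the fold change was -0.74 ± 0.25 (adjusted p = 0.59); H2-K1 was tested only because the AD + DW arrays detected it.

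H2-D1, in contrast, gave 6983, 4597 and 3424 in the AD + OPP livers and 4536, 3806, 4898 and 4678 in the AD + DW livers. The AD + OPP arrays held both its highest and its lowest value, and the fold change was 0.10 ± 0.24 (95% interval -0.44 to 0.65). B2m probe 1 gave 22731, 20237 and 22427 in AD + OPP and 21499, 24642, 25838 and 24639 in AD + DW, which overlapped (-0.15 ± 0.13, adjusted p = 0.731).

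Tap2 gave 623, 587 and 724 in the AD + OPP livers and 810, 723, 944 and 813 in the AD + DW livers, overlapping by 1 array of each group, with a fold change of -0.35 ± 0.14 (adjusted p = 0.592). Psmb9 gave 214, 132 and 229 in AD + OPP and 403, 247, 480.2 and 256 in AD + DW. It had the largest fold change of the liver members, -0.84 ± 0.30 (adjusted p = 0.59). The groups did not overlap, but the AD + DW values spanned more than the gap between the group means of 191 in AD + OPP and 347 in AD + DW. Psmb10 overlapped with both probes, with fold changes of -0.35 ± 0.20 for probe 1 and -0.25 ± 0.23 for probe 2.

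AD + OPP replicate 2 gave the lowest liver value for 8 of the 10 probes tested. Without it, 1 member probe was lower at an unadjusted p under 0.05, and without AD + DW replicate 1 or AD + DW replicate 3 there were 3. The liver arrays also differed in acute phase genes, with mean log2 signals of 14.26, 14.14 and 12.34 in AD + OPP livers and 11.79, 11.82, 12.65 and 13.96 in AD + DW livers, in replicate order. The 3 neutrophil genes tested had means of 14.06, 14.02 and 7.49 in AD + OPP and 8.21, 7.64, 11.83 and 14.10 in AD + DW. None of the 3 was lower or higher at an unadjusted p under 0.05. Of the 8 macrophage and Kupffer cell genes tested in the liver, none was lower or higher at an unadjusted p under 0.05, with means of 9.84, 10.04 and 7.30 in AD + OPP and 8.95, 8.52, 9.61 and 9.71 in AD + DW. Of 8 B cell markers 7 were detected on no liver array, as were 7 of 9 T cell markers. The T cell kinase gene Zap70, the only T cell gene tested there, was lower at an unadjusted p under 0.05, at 109 ± 22.3 in AD + OPP and 177 ± 14.0 in AD + DW (-0.71 ± 0.17, adjusted p = 0.59). Because 0 of 9 T cell markers were detected on all liver arrays, Zap70 passed the filter through a single treatment group, which may set part of this difference. The part of these states and cells in the class I values was not tested.

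In the heart, the 9 probes tested showed no common direction: 5 had a negative and 4 a positive fold change, between -0.22 and 0.10, with a median of -0.04 against 0.006 over all 6580 heart probes tested. Of the 8 probes detected on all 6 heart arrays, 4 had a negative fold change, with a median of -0.01. No member had an unadjusted p under 0.05, while 1.46% of all probes did with a lower signal in AD + OPP. The groups overlapped for every member tested, against 3.54% of probes with every AD + OPP array below every AD + DW array. No heart probe passed an adjusted p of 0.05 (0% of 6580), and 96 were lower and 143 higher at an unadjusted p under 0.05.

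H2-T10 gave 202, 201 and 133 in the AD + OPP hearts and 186, 160.1 and 225 in the AD + DW hearts. H2-D1 gave 1808, 1625 and 1109 in AD + OPP and 1191, 1629 and 1364 in AD + DW, and B2m probe 1 gave 5230, 5123 and 3753 in AD + OPP and 4878, 4057 and 4699 in AD + DW. AD + OPP replicate 3 was the lowest array for H2-D1, H2-T10, both H2-T23 probes, B2m probe 1 and Psmb9, so the spread within the AD + OPP group was wider than the difference between the groups. Psmb9, tested only because all AD + DW arrays detected it while 2 of 3 AD + OPP arrays did, gave the lower end of the range of fold changes, at 105, 96.1 and 70.2 in AD + OPP and 96.2, 89.7 and 129 in AD + DW (-0.22 ± 0.20, 95% interval -0.69 to 0.25). For B2m probe 1 the interval was -0.35 to 0.43. Neutrophil genes divided the heart arrays, with means of 10.85, 8.87 and 8.91 in AD + OPP and 5.31, 10.02 and 6.0 in AD + DW, and macrophage genes had means of 8.96, 8.34 and 7.95 in AD + OPP and 7.69, 8.17 and 7.70 in AD + DW. B and T cell markers were detected on no heart array.

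Whether the effect of OPP differed between organs was tested directly over the 19 arrays for the 12 probes detected in at least 1 organ. The labels do not give the mouse of each array, so arrays of different organs may come from the same mice. The fit treated the arrays as independent. No member passed an adjusted p of 0.05 in any of the 3 contrasts, which 0.456%, 0.1% and 0% of 8989 probes did for spleen minus liver, spleen minus heart and liver minus heart. Between spleen and heart, the fold change was more negative in the spleen for 11 of 12 probes. The median difference was -0.59, against -0.10 over all 8989 probes. The 3 member probes at an unadjusted p under 0.05 were H2-T10 (-0.91 ± 0.28, adjusted p = 0.262), B2m probe 1 (-0.64 ± 0.25, adjusted p = 0.415) and H2-T23 probe 1 (-0.50 ± 0.23, adjusted p = 0.529). The share of all 8989 probes at this unadjusted threshold was not counted, so the count of 3 is not read as a result about the members. Psmb8 had the largest difference, -0.99 ± 0.60, with a wide error (adjusted p = 0.68). However, H2-K1, Tap1 and Psmb8, which are among the 11, were detected on no heart array. The heart side of their differences is thus background signal. Between spleen and liver the signs of H2-D1 and Tap2 were opposite, with differences of -0.70 ± 0.42 for H2-D1 (adjusted p = 0.53) and 0.56 ± 0.27 for Tap2 (adjusted p = 0.413). With this number of arrays the organs were thus not shown to differ in these fold changes, which does not show that they were alike.

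The other genes of the pathway were described from lists of related genes, with the brightest probe of each gene. In the spleen, 6 class I and class I-like heavy chain genes outside the 10 were tested, and 5 were lower at an unadjusted p under 0.05, with a median fold change of -0.77. H2-T17, which RefSeq lists under H2-T22, averaged 112 ± 11.2 in AD + OPP and 190 ± 33.9 in AD + DW (-0.75 ± 0.19, adjusted p = 0.116). Cd1d1, which presents lipids, averaged 133 ± 30.1 in AD + OPP and 232 ± 54.0 in AD + DW (-0.80 ± 0.25, adjusted p = 0.177). In the liver, 1 of 5 was lower, H2-T17 (-0.78 ± 0.30, adjusted p = 0.59), and in the heart 0 of 4.

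The constitutive catalytic subunits that Psmb8, Psmb9 and Psmb10 replace did not share the negative fold changes in the spleen and the liver. Psmb5, Psmb6 and Psmb7 had fold changes of 0.53 ± 0.35, 0.11 ± 0.19 and 0.09 ± 0.21 in the spleen, with mean log2 signals over the 3 genes of 9.76, 9.81 and 9.64 in AD + OPP and 9.33, 9.72 and 9.42 in AD + DW. In the liver they were 0.02 ± 0.13, 0.07 ± 0.11 and 0.02 ± 0.19, and in the heart -0.03 ± 0.13, 0.04 ± 0.16 and -0.18 ± 0.27. Of the other 20S core subunits, 0 of 10 had an unadjusted p under 0.05 in the spleen, with a median fold change of 0.02. In the liver Psma5 (-0.69 ± 0.19, adjusted p = 0.59) and Psmb1 (0.33 ± 0.13, adjusted p = 0.592) had an unadjusted p under 0.05, and in the heart Psmb1 alone (0.31 ± 0.13, adjusted p = 0.999). Activators and assembly factors, among them the interferon-inducible Psme1 and Psme2, had 0 of 7 at an unadjusted p under 0.05 in the spleen and 0 of 6 in the liver. Of the genes for peptide loading and trimming, 5 of 6 had a positive fold change in the liver, and 3 had an unadjusted p under 0.05. Pdia3, the disulfide isomerase of the loading complex, averaged 4218 in AD + OPP and 3229 in AD + DW (0.37 ± 0.14, adjusted p = 0.59), and Hspa5, an endoplasmic reticulum chaperone, had 0.53 ± 0.21 (adjusted p = 0.59). In the spleen 0 of 7 of these genes had an unadjusted p under 0.05.

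Of the regulators of class I genes, 16 were tested in the spleen, and 4 were lower and 1 higher at an unadjusted p under 0.05, with a median fold change of -0.29. Irf8, a factor of B cells and myeloid cells, averaged 923 in AD + OPP and 1863 in AD + DW (-1.03 ± 0.22, adjusted p = 0.0786). Ciita, the master regulator of class II genes, averaged 118 in AD + OPP and 298 in AD + DW (-1.41 ± 0.37, adjusted p = 0.12). Among 10 such genes each in the liver and the heart, none had an unadjusted p under 0.05. Of 13 interferon-stimulated genes tested in the spleen, 8 were lower at an unadjusted p under 0.05 and all 13 had a negative fold change, with a median of -0.57. They included Cxcl9, a chemokine induced by interferon gamma (94.6 in AD + OPP and 296 in AD + DW, -1.79 ± 0.40, adjusted p = 0.0858), and the glycoprotein gene Lgals3bp (-0.65 ± 0.18, adjusted p = 0.138). In the liver 1 of 10 was lower, the antiviral gene Rsad2 (-1.08 ± 0.46, adjusted p = 0.592), with a median of -0.37, and in the heart 0 of 10.

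Of the class II genes, which serve antigen-presenting cells, 7 of 8 in the spleen were lower at an unadjusted p under 0.05, with a median of -1.24. H2-Aa averaged 387 in AD + OPP and 979 in AD + DW (-1.32 ± 0.24, adjusted p = 0.0718) and H2-Eb1 averaged 1967 in AD + OPP and 4573 in AD + DW (-1.24 ± 0.24, adjusted p = 0.077). In the liver 0 of 4 had an unadjusted p under 0.05, and in the heart 1 of 3, H2-Eb1 (-0.64 ± 0.22, adjusted p = 0.999). Of 4 class I receptor genes tested in the spleen, Klrd1, which encodes Cd94, the receptor partner for Qa-1, averaged 135 in AD + OPP and 372 in AD + DW (-1.43 ± 0.30, adjusted p = 0.0786), while Nkg7, the other natural killer cell gene tested, lay the other way (1.29). Pirb, an inhibitory class I receptor of myeloid and B cells, averaged 94.9 in AD + OPP and 26.9 in AD + DW (1.97 ± 0.53, adjusted p = 0.125). Its AD + DW mean was near that of B2m probe 2 in the same spleens (21.6), which no array detected, so this fold change is set against background signal. Of the 4 receptor genes, 2 were lower and 2 higher at an unadjusted p under 0.05.

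**Figure D3:**
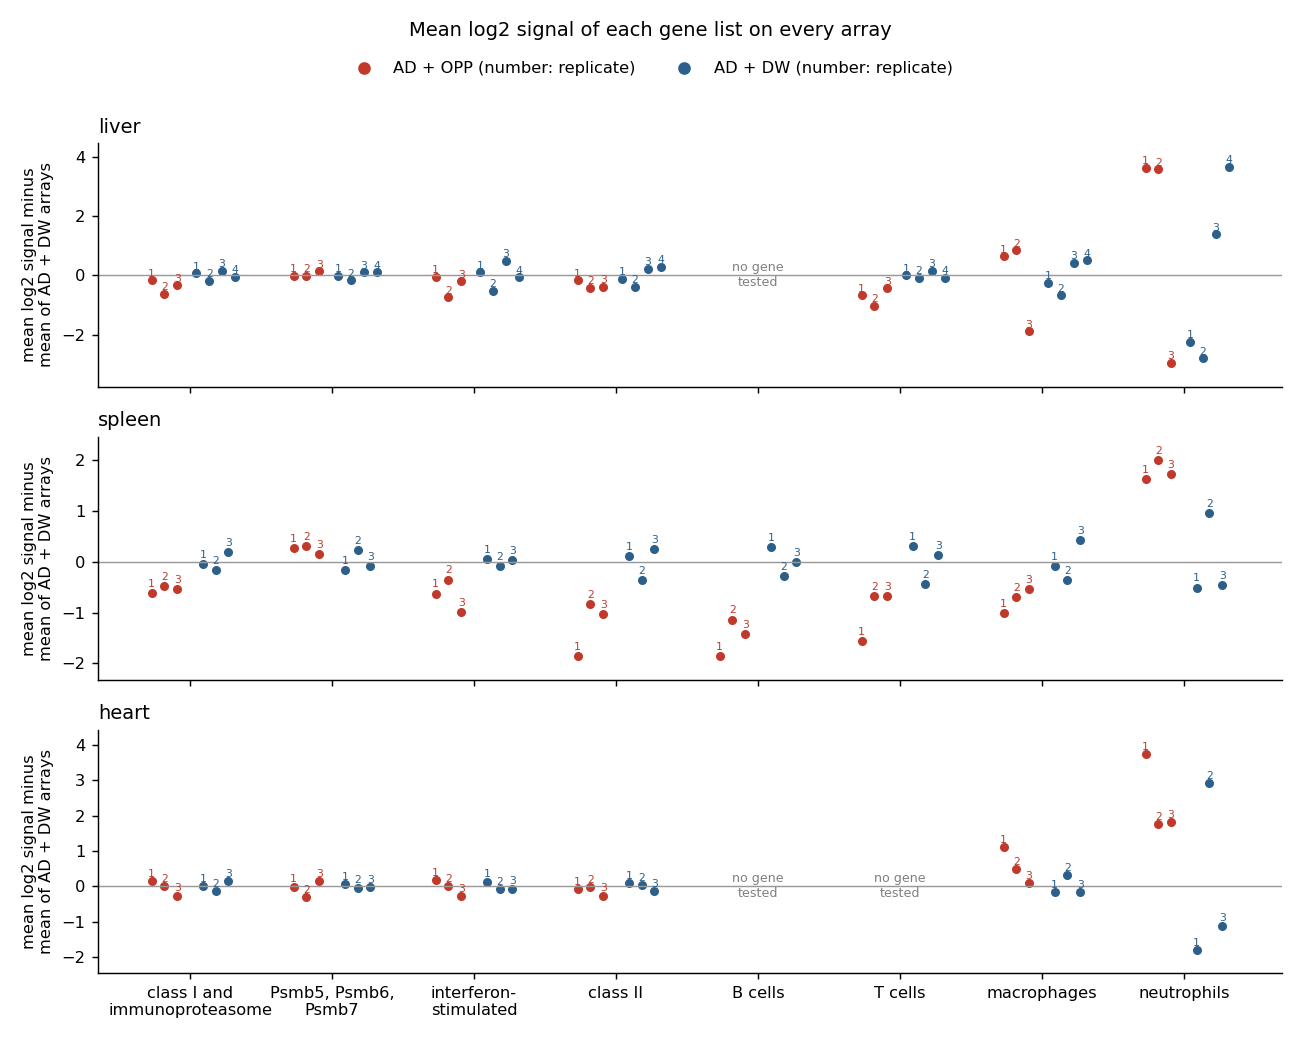
Mean log2 signal of each list of genes (x axis) on every array, minus the mean of the AD + DW arrays of the same organ, for AD + OPP (red, left) and AD + DW (blue, right); numbers are replicates. In the spleen the class I and immunoproteasome probes, class II, B cell, T cell and macrophage genes lie lower in AD + OPP and neutrophil genes higher, while Psmb5, Psmb6 and Psmb7 do not lie lower.

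Between arrays of the same organ and treatment, the members varied together to different degrees. With the mean of each group of arrays removed, the 8 member probes detected on all 19 arrays gave 28 pairs with Pearson correlations between -0.30 and 0.89, a median of 0.40, and 24 of them above 0. The 2 probes of Psmb10 were most alike (0.89), followed by H2-D1 and H2-T23 probe 2 (0.85). The heavy chain and B2m probes correlated with each other at 0.42 to 0.85, while Tap2 correlated with H2-D1 at -0.30. These are correlations across 19 arrays that share normalization, given as a description. Of 3041 other named probes detected on all arrays, those most like the mean of the 8 member probes were Gbp3 (r = 0.81), Vkorc1 (0.81), Clu (0.79), Slco2b1 (0.77) and Zfp655 (0.71).

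Levels in the 3 organs were compared on unnormalized signals quantile normalized over the 19 arrays, with a second processing by neqc, which removes background, because the background left in makes differences smaller. The deposited normalization was made within each organ and does not serve for this. Organs differ in most genes: 78.6% of 8989 probes passed an adjusted p of 0.05 for spleen minus liver, 76.6% for spleen minus heart and 71.1% for heart minus liver. Of 12 member probes tested, 9, 11 and 9 passed in these contrasts, and the number was the same after neqc. All 11 were higher in the spleen than in the heart, and all 9 were lower in the heart than in the liver. Of all 8989 probes, 38.6% passed with a higher level in the spleen than in the heart, and 30.1% with a lower level in the heart than in the liver.

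Between spleen and liver, members fell on both sides. Tap1 and the immunoproteasome probes of Psmb8, Psmb9 and Psmb10 were higher in the spleen, and H2-T10, both H2-T23 probes and B2m probe 1 were lower there. For Psmb8 the call held in 3 of 5 alternative analyses, with adjusted p-values up to 0.0746 (limma). For Psmb10 probe 2 it held in 4 of 5, with values up to 0.286. Folds are from the fit, which weights both treatments equally, and so differ slightly from the means over arrays. Psmb9 was at 9.46 ± 0.21 in spleens (n = 6) and 8.54 ± 0.35 in livers (SD, n = 7) on the log2 scale, and the fitted fold was 1.94 with quantile normalization and 2.63 with neqc. H2-T23 probe 2 differed by about as much in the other direction, at 9.97 ± 0.45 in spleens and 10.94 ± 0.19 in livers (1.95-fold lower in spleens, 2.12-fold with neqc). H2-T23 probe 1 was at 10.90 ± 0.33 in spleens and 11.63 ± 0.21 in livers, and it was 1.63-fold lower in spleens (1.69-fold with neqc). B2m probe 1 was at 13.42 ± 0.23 in spleens and 13.89 ± 0.15 in livers (adjusted p = 0.000476, limma). H2-K1, H2-D1 and Tap2 did not differ beyond the threshold between spleen and liver, with differences of -0.15, 0.02 and 0.19 on the log2 scale. H2-T10 was lower in the spleen over both treatments (-0.20, adjusted p = 0.0282) but not over the AD + DW arrays alone (-0.06, adjusted p = 0.674).

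Among the probes tested, the mean signal was lowest in hearts for all but those of Psmb10, although for Tap1 the heart and the liver did not differ past the threshold (-0.09, adjusted p = 0.313). H2-K1, Tap1 and Psmb8 were detected on no heart array, so their heart level is that of background. H2-T23 probe 1 was at 9.66 ± 0.14 in hearts, a difference of -1.95 from livers (3.86-fold, 4.49-fold with neqc), and B2m probe 1 at 12.27 ± 0.22, a difference of -1.61. Psmb9 was 2.80-fold higher in spleens than in hearts, and 5.24-fold with neqc. Psmb10 probe 1 was at 9.85 ± 0.35 in spleens, 9.71 ± 0.11 in hearts and 9.54 ± 0.23 in livers, with no difference past the threshold for spleen minus heart (adjusted p = 0.214) or heart minus liver (adjusted p = 0.113). The spleen minus liver difference of its probe 1 was 0.33, and it was not past the threshold with median scaling (0.17, adjusted p = 0.134). Markers were as the organ labels say: 6 of 7 hepatocyte genes were detected on all liver arrays and 6 of 7 cardiomyocyte genes on all heart arrays, while on all heart arrays 1 of 7 hepatocyte genes was detected and on all liver arrays 0 of 7 cardiomyocyte genes.

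**Figure D4:**
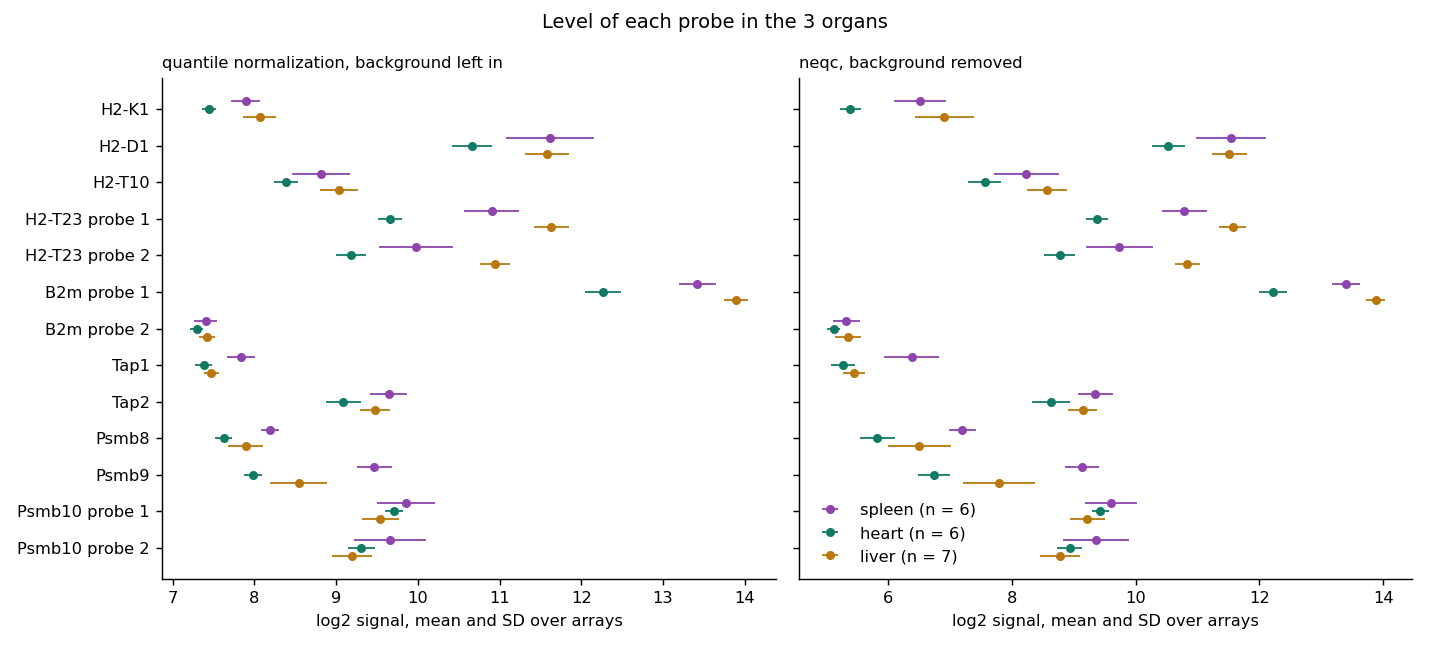
Log2 signal (x axis) of each probe (rows) in spleens (n = 6), hearts (n = 6) and livers (n = 7), both treatments together, as mean and SD over arrays, after quantile normalization with background left in (left panel) and after neqc (right panel). Hearts lie lowest for all probes but those of Psmb10, and Psmb9 lies highest in spleens.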

How the data were processed

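The authors extracted array data with BeadStudio 1.5.1.3, removed outlier arrays by clustering, which can narrow the spread between arrays, and deposited signal intensity values after rank invariant normalization within an organ, unnormalized intensity values and a detection p-value per probe. The deposited normalized intensity of each array was a straight-line function of its unnormalized intensity, which still held background. The series matrix held the same deposited values (0 cells differed). All 13 probes of the 10 genes were used; probes were named through the platform annotation, which gave 19398 of 24048 probes 1 symbol and 4650 none.

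Signals were floored at 10, taken to log2 and tested in each organ with limma 3.58.1 in R 4.3.3, with Benjamini-Hochberg adjustment over all probes tested; organs were compared in a single fit over 19 arrays. In the lists, each gene was read by its brightest probe, and the 2 genes of lowest p under 0.05 were named. The members and lists were chosen with earlier results of these data known. The fits were tested on simulated data. Detected probes numbered 6105 to 6883 on liver, 5863 to 7524 on spleen and 6554 to 7576 on heart arrays. Precision is limited by how few arrays there were, and p-values measure the spread between arrays. The mice shared cages that the labels do not give, so cage and treatment cannot be told apart. Arrays of different organs may also share mice, which the labels do not give and the fits over organs did not model. Alternatives covered normalization, background, floor, filter, variance model, array weights, the replicate number as a block and leaving out each array. Arrays of mice on the normal diet were not analysed here.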

Additional observations from a re-analysis of the deposited data

Results flagged for a closer look

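Within groups of 4 arrays, 10 member probes and 16 list means were checked for a single array far from the others, which chance gives in about 5% of groups, and 1 was found. In liver AD + DW replicate 3 the mean log2 signal of the genes for peptide loading and trimming was 9.30, against 9.46, 9.47 and 9.45 in the other AD + DW livers, and 9.72, 9.48 and 9.78 in the AD + OPP livers. No member probe was found in this way.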

How the results depend on the processing

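Over 920 values of single probes under other settings, 896 kept their direction and side of the threshold, 15 lost and 8 gained a call, and 1 reversed: the spleen minus liver level of Psmb10 probe 1 was -0.048 on the table as deposited, against 0.33. Most of these values were level differences between organs. The OPP values among them were of probes without a call in the analysis reported, so they had no call to lose. All 8 gained calls were those of H2-T10 in the spleen. In the spleen, 1 member probe (H2-T10) passed the adjusted threshold with quantile normalization, median scaling, a floor of 50, probes detected on every array, a trended and robust variance, array weights, a single fit over all arrays, and normexp with quantile normalization, the last chosen after seeing the data. The number of all spleen probes past it, 0 in the analysis reported, was 192, 194, 101, 52, 222, 141, 254 and 177 under these settings, and 5 without a filter; in the heart it was 3 without a filter. The median spleen fold change of the members, -0.60, was -0.39 with quantile normalization, -0.40 with median scaling and -0.40 with normexp. In the liver, 3 members were lower at an unadjusted p under 0.05 in a single fit and 3 with the replicate number as a block, against 5. Same-numbered AD + OPP and AD + DW arrays of an organ had deviations from their group means that correlated at -0.40 to 0.19. With so few arrays this cannot show whether the numbers pair the arrays, and numbers were not compared across organs. With the block the count was 5 in the spleen, 0 in the heart, and 2 for spleen minus heart. Leaving out 1 array at a time, the counts at an unadjusted p under 0.05 ran from 1 to 5 in the liver, 3 to 7 in the spleen and 1 to 5 for spleen minus heart. For spleen minus heart, no share over all probes was counted to set beside these numbers. The median ran from -0.45 to -0.22, from -0.75 to -0.43 and from -0.16 to 0.09 in liver, spleen and heart. The count of all spleen probes past the adjusted threshold ran from 0 to 168, with 168 when AD + DW replicate 2 was left out and 3 when AD + OPP replicate 2 was. Organ level counts ran from 8 to 11, 10 to 11 and 9 to 10 for spleen minus liver, spleen minus heart and heart minus liver. The cause of these changes was not tested. Dim probes (H2-K1, Tap1, Psmb8) have the least signal over background, and background left in the unnormalized signals makes folds smaller.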

Other observations

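The interferon-inducible GTPase gene Gbp3, the nearest to the members over the 19 arrays, had fold changes of -0.57 ± 0.22 in spleens, -0.13 ± 0.18 in hearts and -0.43 ± 0.27 in livers (adjusted p = 0.261, 0.999 and 0.671, limma). Clu, which encodes the secreted chaperone clusterin, had -1.11 ± 0.34, 0.08 ± 0.21 and -0.17 ± 0.15 in the same organs. Neither passed an adjusted p of 0.05 in any organ.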
